A study of Homo sapiens with 8 samples.

Results

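The genes described here are those of the AP-1 transcription factor and its close immediate early companions: FOS, FOSB, FOSL1, FOSL2, JUN, JUNB, JUND, ATF3, EGR1 and MAFF. They were picked by symbol, through the RefSeq accession that each array probe carries. Of the 10 genes, 9 had a probe, out of 17240 genes with a probe in the series, and JUND was not analysed here. These 9 genes had 14 probes: ATF3, FOSL1 and JUNB have more than 1, and FOSL2 has 3. All 14 probes were well above background in both channels on all 8 arrays.

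RNA of CAPAN-2 cells, an established human pancreatic adenocarcinoma line, was hybridised to 8 Agilent 2-colour arrays. ErbB2-KD cells are clones stably transfected with a plasmid that encodes a short hairpin RNA against ErbB2. The 4 clones EV7, EV12, EV9 and EV18 were set against the RNA of a pool of 4 non-targeting clones (NT) that carry the empty plasmid. MUC4-KD cells are clones infected with a retrovirus that carries a hairpin against MUC4. 4 of these arrays were set against a pool of 4 Mock clones with the empty retrovirus. By the study's methods these are 4 clones, which the labels do not name. The labels thus do not show whether any of these arrays share a clone, in which case n = 4 would stand for fewer clones. Both kinds of clone were isolated by limiting dilution after drug selection for their vectors. Each ratio was turned to labelled knockdown over labelled control. A pool counts as 1 control sample, so the tests leave out the spread of the control clones, and 4 ratios tested by exact sign flips could not go below p = 0.125.

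AP-1 is a dimer of basic leucine zipper (bZIP) proteins. FOS proteins need a JUN partner to bind DNA, JUN proteins can also pair among themselves, and ATF3 and MAFF are related bZIP proteins with partners of their own. EGR1 is a zinc finger factor that is induced together with them. Most of these genes are immediate early genes, which are transcribed within minutes of a growth factor or stress signal and whose mRNA decays quickly. The p42/p44 MAP kinases act on FOS and EGR1 through the factors that bind their promoters, and JNK is named for the phosphorylation of JUN. The study asked which of these kinase pathways depend on ErbB2 and on MUC4, and named AP-1 as a factor that could link them with cyclin D1, MUC4 and MUC1. The arrays measured mRNA and say nothing of phosphorylation.

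The knocked-down genes were read first. The probe of ERBB2 with 10 spots had log2 ratios of -0.58, -0.32, -0.33 and -0.38 on ErbB2-KD arrays 1 to 4, a mean of -0.40 ± 0.12 (SD, n = 4, adjusted p = 0.145). Its other probe, A_24_P284420, stood at 0.04 ± 0.02 and was above 0 on all 4 arrays (adjusted p = 0.897), and the mean over both was -0.18. In the MUC4-KD experiment, 2 of the 4 MUC4 probes were called higher in the RNA labelled MUC4-KD, against its label. Their mean log2 ratios were 1.84 ± 0.57 and 1.34 ± 0.84 (SD, n = 4, adjusted p = 0.00806 and 0.0355), and the brightest MUC4 probe stood at 0.27 ± 0.23 (adjusted p = 0.167). The direction of the deposited ratios is opposite to that of the fold changes in the study's own list for MUC4-KD. The values below are therefore given with the RNA labelled MUC4-KD set over that labelled Mock, and every direction in that experiment rests on those labels. The study also assayed MUC4 by Western blot and qRT-PCR, which were not analysed here. MUC4-KD array 4 had the lowest correlations with the other arrays of its experiment (r of 0.33 to 0.535 across probes, against 0.675 to 0.827 among the other 3). In ErbB2-KD it was array 2 (clone EV12), with r of 0.286, 0.389 and 0.201 against 0.357 to 0.718 among the other 3, and its median knockdown signal was 593, where that of the others was 100 to 201. The 3 slides each held both experiments. Of the markers of ductal epithelium, KRT7, KRT8, KRT18, KRT19, EPCAM and CDH1 were well above background in both channels on all 8 arrays. Of 8 markers of other cells, CD14 was so on 8 arrays and the others on 0 to 3. KRT19 was called higher in the RNA labelled MUC4-KD (1.02, adjusted p = 0.00585), and the other 5 epithelial markers in neither experiment. CD14 stood at 0.55 and -0.28 (adjusted p = 0.224 and 0.211). The part of these markers in the results below was not tested, nor can fewer cells of a kind be told apart from less RNA per cell.

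No AP-1 gene passed the test in ErbB2-KD cells. 0 of 9 were called at a limma adjusted p under 0.05, while 1.43% of the 23877 probes tested were, a share that rests on single arrays: the 342 probes called became 0 without array 1, 4 without array 3 and 33 without array 4, and 487 without array 2. At an unadjusted p under 0.05, 3 of 9 genes passed (FOSL1, JUNB and ATF3), where 18% of all probes did, and the same 3 had 1 direction on 4 of 4 arrays, as did 27.4% of all probes. The median log2 ratio was -0.24 over the 9 genes and -0.01 over all tested probes.

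The RNA labelled MUC4-KD had 4 of 9 genes past the test, in both directions. FOS and JUNB were higher, FOSB and ATF3 lower. The adjusted p was under 0.05 for 20.5% of the 25054 probes tested, with 12% higher and 8.48% lower. 5 of 9 genes had 1 direction on 4 of 4 arrays, as did 49.4% of all probes. The median log2 ratio was 0.15 over the 9 genes and 0.01 over all tested probes.

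**Figure D1:**
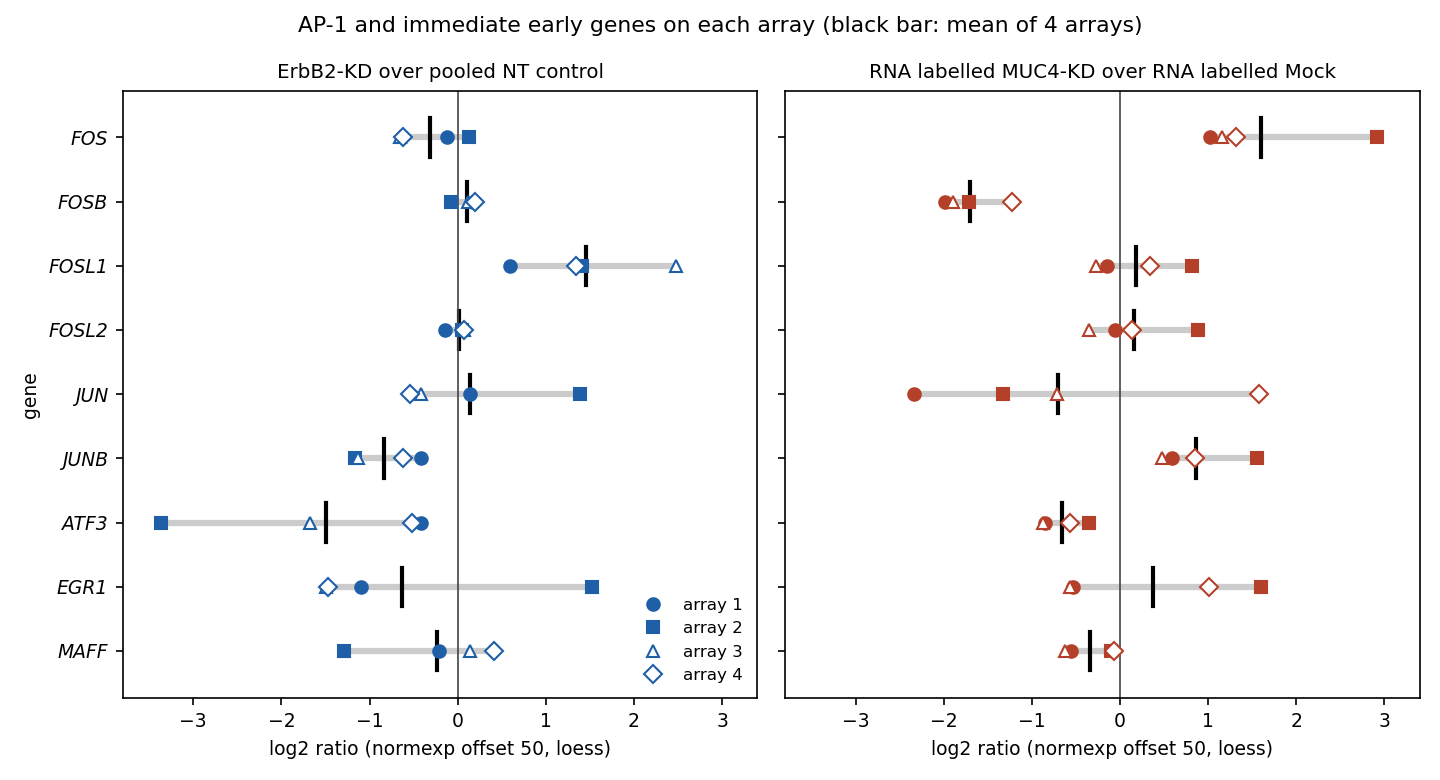
Log2 ratio of knockdown over control (x axis) for the brightest probe of each of the 9 genes (rows), in ErbB2-KD (left, blue) and in the RNA labelled MUC4-KD (right, red). Each symbol is 1 array, the grey line spans the 4 arrays and the black bar is their mean: FOS lies between 1.03 and 2.91 and FOSB between -1.99 and -1.23 on the MUC4-KD arrays, while JUN runs from -2.33 to 1.57 on them.

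The promoters of FOS, FOSB and JUNB are shown because these 3 genes differed between the experiments, as described below. They are the 150 bases before the RefSeq start (GRCh38.p14, plus strand), 5′ to 3′, at chr14:75278678-75278827, chr19:45467846-45467995 and chr19:12791336-12791485. Capitals mark matches on either strand to TGACG, the core of the cAMP response element that JUN and ATF dimers also bind, and to TATAAA, which places the start of transcription.
FOS: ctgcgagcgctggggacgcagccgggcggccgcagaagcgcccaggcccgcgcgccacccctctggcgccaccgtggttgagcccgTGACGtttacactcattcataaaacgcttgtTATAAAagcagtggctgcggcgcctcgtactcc
FOSB: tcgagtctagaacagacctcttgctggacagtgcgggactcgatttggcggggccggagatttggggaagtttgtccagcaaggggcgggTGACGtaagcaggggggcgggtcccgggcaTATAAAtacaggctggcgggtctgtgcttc
JUNB: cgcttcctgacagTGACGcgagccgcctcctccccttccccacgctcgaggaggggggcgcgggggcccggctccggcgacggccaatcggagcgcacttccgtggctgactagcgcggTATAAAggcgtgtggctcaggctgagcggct
The FOS and FOSB promoters held both motifs at nearly the same place. TGACG began 64 bases before the start in FOS and 60 bases before it in FOSB, and TATAAA began 33 and 30 bases before it. Of the 9 genes with a promoter in the table, JUND included and FOSL1 not, 8 held TGACG in the 250 bases before the start and 4 held TATAAA. Of all 35116 promoters, 21.2% and 10.7% did. The AP-1 site in the form TGANTCA was found in 0 of the 9 and in 6.57% of all promoters. Longer forms of that site, such as TGACATCA, were not searched. The whole element TGACGTCA was found in JUND and MAFF and in 1.65% of all promoters, and contains that core. Within these 250 bases the CArG box, bound by the serum response factor, was found only in EGR1 among the 9 and in 1.16% of all promoters. Bases further upstream were not searched, so a box there would be missed. A match is a run of letters, and binding was not measured here.

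FOS, the first AP-1 protein to be induced by serum, was higher on every array of the RNA labelled MUC4-KD. Its log2 ratios were 1.03, 2.91, 1.15 and 1.32 on arrays 1 to 4, a mean of 1.60 ± 0.88 (SD, n = 4), or 3.03-fold, with a limma adjusted p of 0.0262. Array 2 stood well above the other 3 by this processing, and without it the mean was 1.17 (adjusted p = 0.0289). By the Feature Extraction log ratios, arrays 2 and 4 stood together at 3.20 and 3.46, above 1.14 and 1.12 on arrays 1 and 3. Without array 1 or array 3 the call was lost (adjusted p = 0.0706 and 0.116). In ErbB2-KD, FOS had ratios of -0.12, 0.13, -0.65 and -0.61, a mean of -0.31 ± 0.38 (SD, n = 4, adjusted p = 0.394). The 4 arrays of one experiment do not overlap with those of the other, a trait that was not counted over all probes.

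FOSB, a FOS relative that is likewise induced early, went the other way in the RNA labelled MUC4-KD. Its ratios of -1.99, -1.71, -1.89 and -1.23 gave a mean of -1.71 ± 0.34 (SD, n = 4), or 3.26-fold lower, with a limma adjusted p of 0.00405. All 4 arrays were below -1, and the smallest change was that of array 4. The call was lost without array 3 (adjusted p = 0.0552). In ErbB2-KD the ratios of FOSB were 0.17, -0.07, 0.12 and 0.20, and its SD of 0.12 was among the smallest of the 9 genes. FOS and FOSB thus moved apart on the same 4 arrays.

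FOSL1, also called FRA-1, a FOS protein without the transactivation domain of FOS, had the largest mean of the FOS family in ErbB2-KD. Its ratios were 0.59, 1.41, 2.47 and 1.35, all above 0, with a mean of 1.45 ± 0.77 (SD, n = 4), or 2.74-fold, and a limma adjusted p of 0.0788. The other FOSL1 probe gave 0.27, 0.49, 2.32 and 1.03 (limma adjusted p = 0.197), so array 3 was the highest on both probes. In 1 fit over all 8 arrays, which shares the spread of both experiments, the adjusted p of the brightest probe was 0.0185. That probe was called in 2 of 11 alternatives, both of them such fits. With an array left out it was called in 0 of 4 fits (limma adjusted p = 0.11 to 0.209). The 4 ratios of the RNA labelled MUC4-KD lay between -0.27 and 0.82 on both sides of 0 (mean 0.18 ± 0.50, SD, n = 4). FOSL2, or FRA-2, its nearest relative, had means of 0.01 ± 0.10 in ErbB2-KD and 0.15 ± 0.53 in the RNA labelled MUC4-KD (SD, n = 4, adjusted p = 0.969 and 0.617). Its other 2 probes had means of no more than 0.10 in either experiment.

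JUN, the founding partner of FOS and the substrate that gave JNK its name, was the most scattered of these genes in the RNA labelled MUC4-KD. Its ratios, each a mean over up to 10 spots, were -2.33, -1.32, -0.71 and 1.57 on arrays 1 to 4. The first 3 arrays were below 0 and array 4 was above it. The mean was -0.70 ± 1.66 (SD, n = 4, adjusted p = 0.409), and 99.8% of the tested probes had a smaller SD in this experiment. Without array 4 the mean was -1.46 and the adjusted p was 0.0175, a call that rests on leaving out the only array above 0. Of the arrays left, 1 and 2 had the RNA labelled MUC4-KD in Cy3 and 3 had it in Cy5. The number of all probes called moved with the array left out as well. In ErbB2-KD, JUN had ratios of 0.14, 1.38, -0.42 and -0.54, a mean of 0.14 ± 0.88 (SD, n = 4). The ratios of JUN also followed the dye: the mean was 0.76 where the ErbB2-KD RNA was in Cy5 and -0.48 where it was in Cy3, and 0.43 and -1.83 for the RNA labelled MUC4-KD. With a dye term over the 8 arrays, that gap was 1.75 on the log2 scale (limma, unadjusted p = 0.00981, adjusted p = 0.165), and JUN was the only one of the 9 brightest probes with an unadjusted p under 0.05 for it. Of the other 5 probes, those of FOSL1 (A_23_P322519), JUNB and FOSL2 (A_23_P345581) were under it too (unadjusted p = 0.0204, 0.0315 and 0.0484), with the opposite sign. The dyes were balanced in both experiments.

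JUNB, a JUN protein that can restrain JUN at some promoters, had opposite signs in the experiments. In ErbB2-KD its ratios were -0.42, -1.16, -1.13 and -0.62, below 0 on 4 of 4 arrays, with a mean of -0.83 ± 0.37 (SD, n = 4, adjusted p = 0.0786). The RNA labelled MUC4-KD had 0.58, 1.55, 0.48 and 0.85, with a mean of 0.87 ± 0.48 (SD, n = 4), or 1.82-fold higher, and a limma adjusted p of 0.0337. No array of one experiment reached the range of the other, which again was not counted over all probes. The other JUNB probe had the same signs, with means of -0.54 and 0.37, and was called in neither. The call in the RNA labelled MUC4-KD was lost without array 1, 2 or 3 (adjusted p = 0.0964, 0.0792 and 0.114). It was also lost with arrays 1 and 3, and 2 and 4, averaged. JUNB in ErbB2-KD reached an adjusted p of 0.0429 in the fit over 8 arrays. It was called there in 2 of 11 alternatives and in 0 of 4 fits with an array left out.

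ATF3, a stress-induced bZIP protein that pairs with JUN proteins and often represses, was below 0 on all 8 arrays by its brightest probe. Its ratios in ErbB2-KD were -0.41, -3.36, -1.68 and -0.52, and array 2 (clone EV12) was far below the others. The mean was -1.49 ± 1.37 (SD, n = 4, adjusted p = 0.197), with a smaller SD for 99.5% of the tested probes. On the MUC4-KD arrays the ratios were -0.85, -0.35, -0.88 and -0.56, a closer set with a mean of -0.66 ± 0.25 (SD, n = 4), or 1.58-fold lower, and a limma adjusted p of 0.0256. The call was lost without array 1, 2 or 3 (adjusted p = 0.125, 0.0575 and 0.138), and in the fit over 8 arrays (adjusted p = 0.246). It was also lost with arrays 1 and 3, and 2 and 4, averaged. The other ATF3 probe had means of -0.85 and -0.41 and was called in neither experiment. It was above 0 on MUC4-KD array 4 (0.15).

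EGR1, a factor that serum and p42/p44 signals induce through CArG boxes, split each experiment. In ErbB2-KD it had ratios of -1.09, 1.52, -1.49 and -1.48, so 3 clones were below 0 and clone EV12 was above it. The mean was -0.64 ± 1.45 (SD, n = 4, adjusted p = 0.586), and 99.6% of the tested probes had a smaller SD. Without array 2 the mean was -1.35 with an adjusted p of 0.0238, a call that rests on leaving out that clone. Of the MUC4-KD arrays, 1 and 3 were at -0.53 and -0.56 and 2 and 4 at 1.60 and 1.01. MAFF, a small MAF protein, had ratios of -0.21, -1.29, 0.14 and 0.41 in ErbB2-KD, where clone EV12 was again apart from the rest. On the MUC4-KD arrays its ratios lay between -0.63 and -0.07, with a mean of -0.34 ± 0.29 (SD, n = 4, adjusted p = 0.134).

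**Figure D2:**
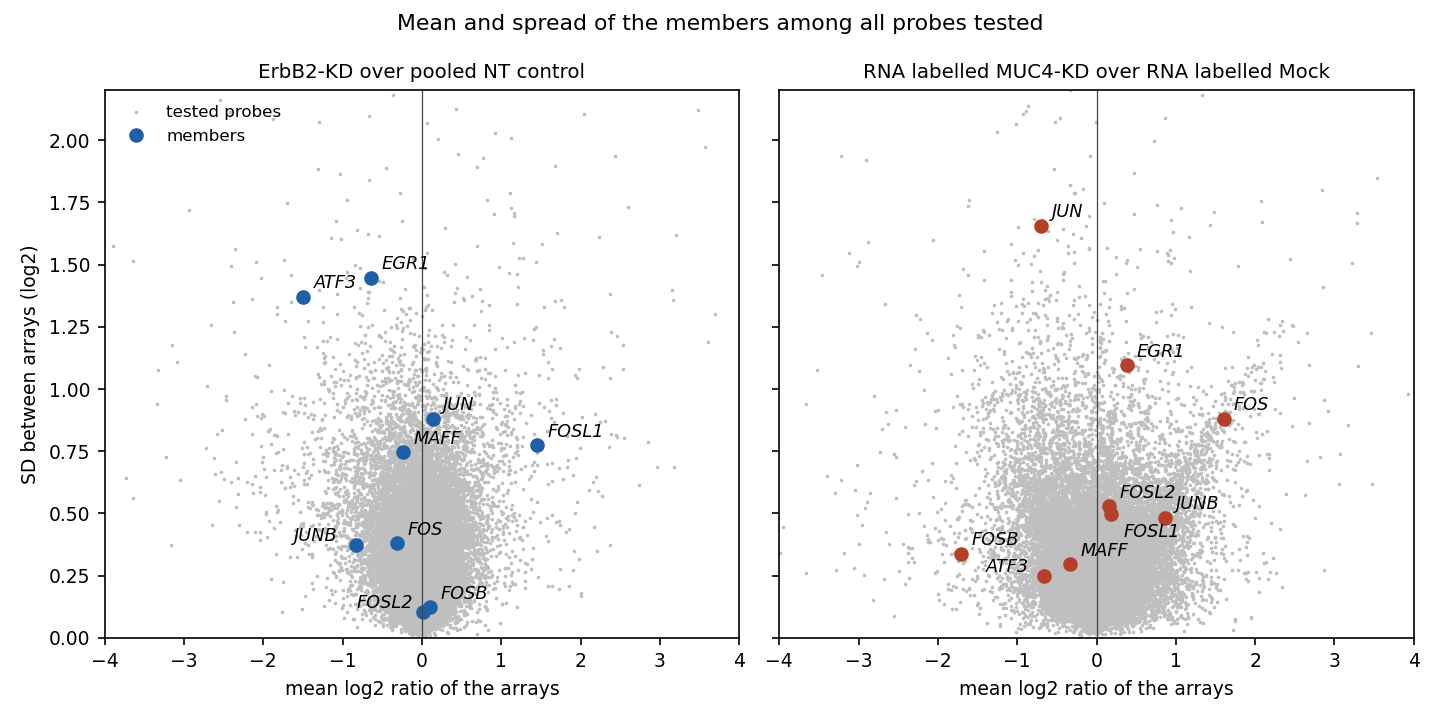
Mean log2 ratio (x axis) against the SD between arrays (y axis) for every probe tested (grey) and the 9 genes (coloured), in ErbB2-KD (left) and in the RNA labelled MUC4-KD (right). EGR1 and ATF3 in ErbB2-KD (SD of 1.45 and 1.37) and JUN in the RNA labelled MUC4-KD (1.66) lie above nearly all probes. 19 and 13 probes fall outside the axes.

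The spread between arrays was wide for much of the group, though not for all: in ErbB2-KD only 11.2% and 7.58% of the tested probes had a smaller SD than FOSB and FOSL2. The median SD of the 9 genes was 0.75 in ErbB2-KD and 0.50 in the RNA labelled MUC4-KD, and that of all tested probes 0.30 and 0.28. In ErbB2-KD, clone EV12 had the lowest ratio of ATF3 and MAFF and the highest of JUN and EGR1. Without that array the mean was -0.87 for ATF3, 0.11 for MAFF and -0.28 for JUN, none of them called. In the MUC4-KD experiment, arrays 1 and 3 had nearly equal ratios: the median gap over the 9 genes was 0.11 on the log2 scale and the widest, apart from JUN, was 0.30, in FOSL2. For JUN the gap was 1.62. Between arrays 1 and 2 the median gap was 0.96. Over all tested probes the median gap was 0.21 for both of these pairs.

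The difference between the experiments was tested over all 8 arrays. The experiments differ in the target of the hairpin, the vector, the selection drug and the control pool, which cannot be told apart here. FOS, JUNB and FOSB passed, 3 of 9 genes. The adjusted p of this test was under 0.05 for 9.9% of the 25841 probes tested, 6.49% with a higher and 3.41% with a lower ratio in the RNA labelled MUC4-KD. The ratio of the RNA labelled MUC4-KD exceeded that of ErbB2-KD by 1.92 ± 0.40 (SE) on the log2 scale for FOS and by 1.70 ± 0.27 for JUNB (limma adjusted p = 0.0234 and 0.00946). By the other JUNB probe the excess was 0.91 ± 0.25 (SE, limma adjusted p = 0.0542), which did not pass. For FOSB the difference was -1.81 ± 0.19 (SE, adjusted p = 0.0022). Within the 3 slides it was 1.19, 3.29 and 1.70 for FOS, 2.02, 2.32 and 1.15 for JUNB, and -1.16, -1.85 and -2.14 for FOSB. As the arrays of the experiments do not overlap for these 3 genes, the sign within a slide was fixed and only the size is read here. FOSL1 differed by -1.27 ± 0.39 (SE, adjusted p = 0.0684), and 6 of 9 genes did not pass.

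The direction of the MUC4-KD arrays bears on these differences. With the sign of every MUC4-KD ratio turned, the difference was -1.29 for FOS (adjusted p = 0.0564), 1.60 for FOSB (adjusted p = 0.00163) and -0.03 for JUNB (adjusted p = 0.941). FOSL1 (-1.64, adjusted p = 0.0235) and ATF3 (2.15, adjusted p = 0.0337) then passed. These values follow from the means above, since FOSB lay near 0 in ErbB2-KD and the means of JUNB were opposite and of like size.

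**Figure D3:**
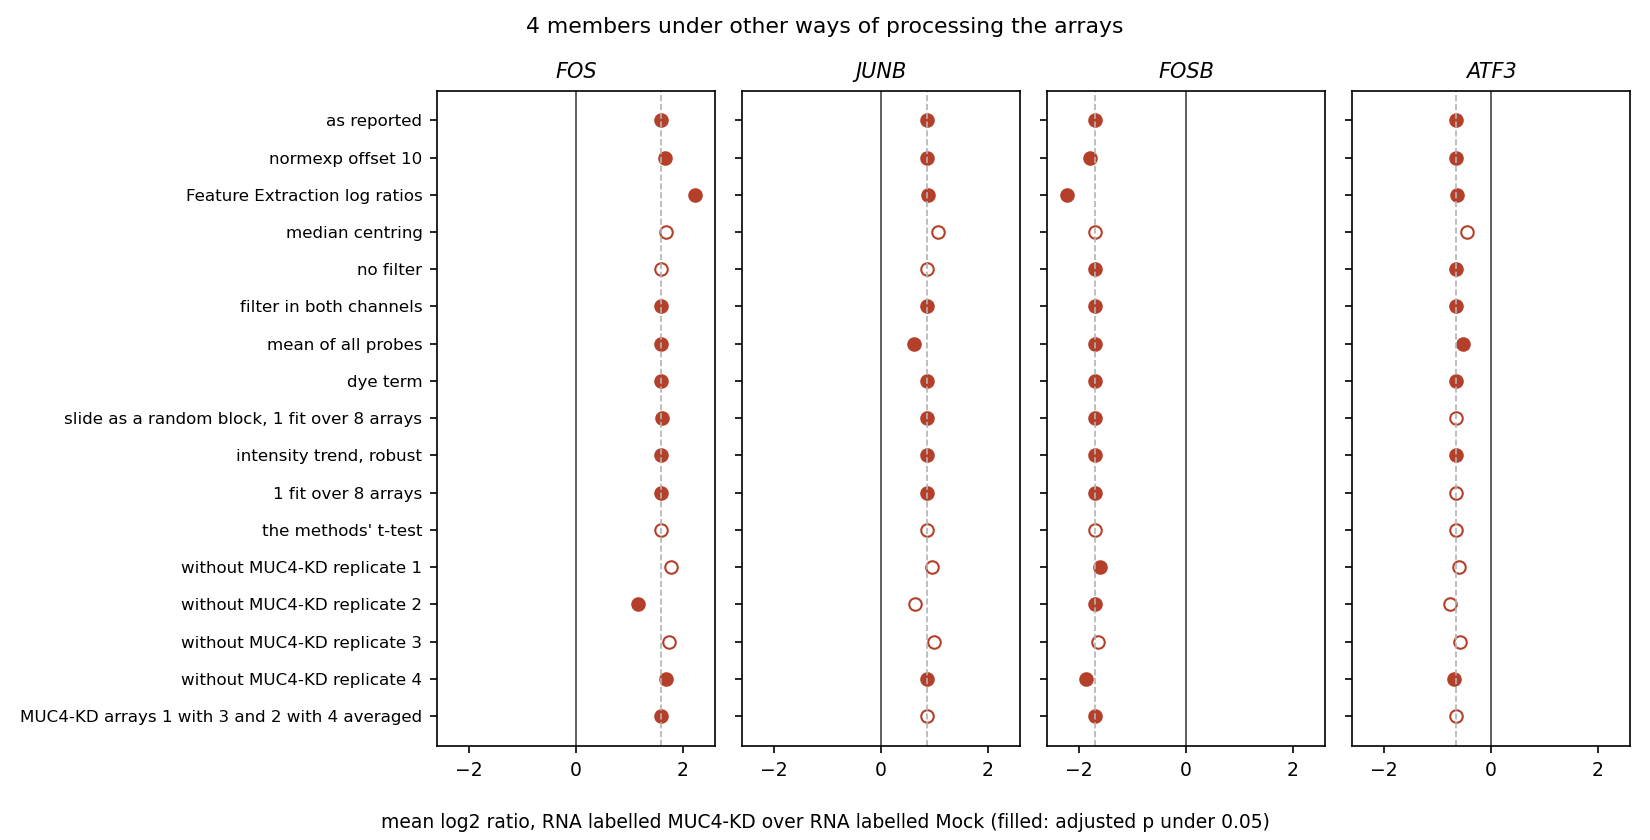
Mean log2 ratio (x axis) of the 4 genes called in the RNA labelled MUC4-KD, under the reported processing (top row, dashed line) and the alternatives (rows). Filled points have an adjusted p under 0.05: no mean changed sign, and median centring, with means of 1.70 for FOS and -1.70 for FOSB, left none of the 4 called.

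The processing of the arrays moved single values more than signs. Feature Extraction subtracts the background without an offset, and by its log ratios FOS stood at 3.46 and FOSB at -2.66 on MUC4-KD array 4, against 1.32 and -1.23 by normexp and loess. The means were then 2.23 for FOS and -2.23 for FOSB, both called (adjusted p = 0.0215 and 0.00132). FOSL1 in ErbB2-KD had a mean of 1.89 by these log ratios (adjusted p = 0.0525).

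**Figure D4:**
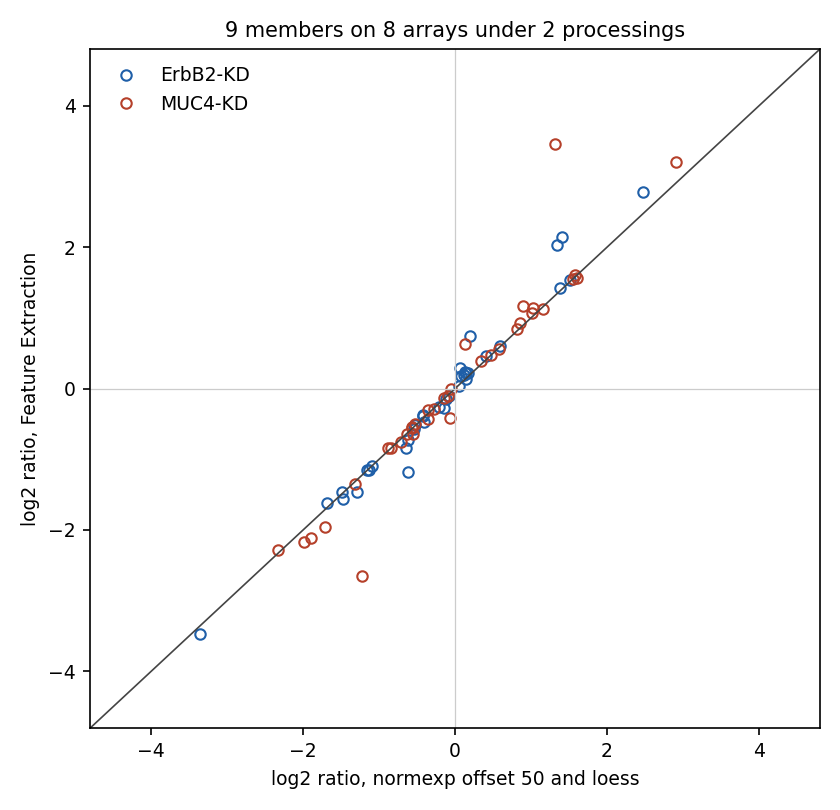
Log2 ratio of the 9 genes on the 8 arrays after normexp with an offset of 50 and loess (x axis) and by the Feature Extraction software (y axis), ErbB2-KD in blue and the RNA labelled MUC4-KD in red, with the line of equality. The points far from the line include FOS (1.32 and 3.46) and FOSB (-1.23 and -2.66) on MUC4-KD array 4.

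The other bZIP genes, which can pair with FOS, JUN or ATF3 proteins or with each other, had 0 of 17 called in ErbB2-KD and 6 of 17 in the RNA labelled MUC4-KD, all 6 lower. Of all probes, 1.43% were called in ErbB2-KD, and 20.5% in the other experiment, 8.48% lower. The 6 genes were BATF2 (mean log2 ratio -1.52), a partner of JUN proteins, JDP2 (-1.14), a repressor of AP-1, NFE2L1 (-1.02), a regulator of proteasome genes, ATF6 (-0.99) of the unfolded protein response, ATF4 (-0.93) of the amino acid response, and ATF5 (-0.91). The median over the list was -0.14 in ErbB2-KD and -0.33 in the RNA labelled MUC4-KD. CREB1 and ATF2, which bind the cAMP response element, stood at 0.29 and 0.37 in the MUC4-KD experiment and were not called. None of the 6 calls held with median centring, and without array 3 none held either.

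Other immediate early genes had 1 of 26 called in ErbB2-KD and 9 of 27 in the RNA labelled MUC4-KD, 5 higher and 4 lower, beside 1.43% and 20.5% of all probes (12% higher, 8.48% lower). In ErbB2-KD, TRIB1, a pseudokinase, had a mean of 1.32 ± 0.30 (SD, n = 4, adjusted p = 0.0228). PLK2 (2.04 ± 0.24, SD, n = 4, adjusted p = 0.00232), KLF6 (1.11 ± 0.33) and KLF10 (0.98 ± 0.59) were higher on the MUC4-KD arrays. PPP1R15A, which reverses the eIF2α phosphorylation of the stress response, was lower (-1.82 ± 0.12, SD, n = 4, adjusted p = 0.00201), as were DUSP2 (-1.34 ± 0.86), a nuclear MAP kinase phosphatase, and PLK3 (-1.06 ± 0.58). The medians of this list were -0.01 and -0.02. TRIB1 stayed called without array 2 alone, and lost the call with median centring and with no filter. PLK2 and PPP1R15A stayed called whichever array was left out. The other 4 lost the call without array 3, and all 6 of the MUC4-KD experiment with median centring. KLF10 and DUSP2 were called in only 1 of 4 fits with an array left out.

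Of the JNK pathway, 0 of 14 genes were called in ErbB2-KD and 3 of 12 in the RNA labelled MUC4-KD, all 3 higher, a share near the 20.5% of all probes. DUSP10 (0.93 ± 0.45) and DUSP16 (0.59 ± 0.36) encode phosphatases that act on JNK, and MAP3K5 (0.60 ± 0.30; SD, n = 4 for each) encodes a kinase upstream of it. Their adjusted p were 0.0258, 0.0496 and 0.0383 by limma, and each stayed called without array 4 alone. DUSP16 and MAP3K5 also lost the call in the fit over 8 arrays. MAPK9, the JNK gene tested, stood at 0.48 ± 0.52 (adjusted p = 0.139), and MAPK8 was not analysed here. Of the p42/p44 cascade, 0 of 15 were called in ErbB2-KD and 3 of 14 in the RNA labelled MUC4-KD: NRAS (0.93 ± 0.22), the FOS promoter factor ELK3 (0.75 ± 0.39) and the kinase RPS6KA3 (0.72 ± 0.45; SD, n = 4 for each), with limma adjusted p of 0.0105, 0.0332 and 0.044. This share too was near that of all probes, and all 3 calls were lost without array 1 or array 3. The list medians were -0.04 and 0.11 for JNK, and -0.001 and 0.20 for p42/p44.

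Genes known as AP-1 targets had 3 of 14 called in ErbB2-KD and 4 of 17 in the RNA labelled MUC4-KD, where 1.43% and 20.5% of all probes were, the latter a share near that of the list. In ErbB2-KD, PLAUR, the urokinase receptor, was higher (1.65 ± 0.21, SD, n = 4, adjusted p = 0.0118), as was EZR, the membrane linker ezrin (1.39 ± 0.32, adjusted p = 0.0228). HMOX1, the heme oxygenase of the oxidative stress response, was lower (-2.49 ± 0.64, SD, n = 4, adjusted p = 0.0216). CD44, the hyaluronan receptor, was higher on the MUC4-KD arrays (1.74 ± 0.07, adjusted p = 0.00201), as were MMP9 (1.67 ± 0.57) and CXCL8 (0.51 ± 0.16; SD, n = 4). The list medians were 0.41 and 0.28. PLAUR, EZR and HMOX1 stayed called without array 2 alone, and the last 2 lost the call with median centring and with no filter. CD44 stayed called whichever array was left out, MMP9 lost the call without array 1 or 3, and CXCL8 without array 1, 2 or 3 and in the fit over 8 arrays. CD44, MMP9 and CXCL8 all lost the call with median centring.

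CCND1, the cyclin D1 gene, had mean log2 ratios of 0.08 ± 0.71 in ErbB2-KD and -0.01 ± 0.91 in the RNA labelled MUC4-KD by its brightest probe (SD, n = 4, adjusted p = 0.919 and 0.99). Its 10-spot probe gave 0.65 ± 0.21 in the latter and was called (adjusted p = 0.0222), with ratios of 0.92, 0.71, 0.48 and 0.51. These probes disagree on arrays 1 and 2, where the brightest read -0.52 and -0.98. MUC1, a membrane mucin, had -0.86 ± 0.60 in ErbB2-KD (SD, n = 4, adjusted p = 0.144). Over the MUC4-KD arrays it had -0.42 ± 1.25 (SD, n = 3, adjusted p = 0.541), since its spot on array 3 carried an outlier mark of the scanner software and was left out.

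**Figure D5:**
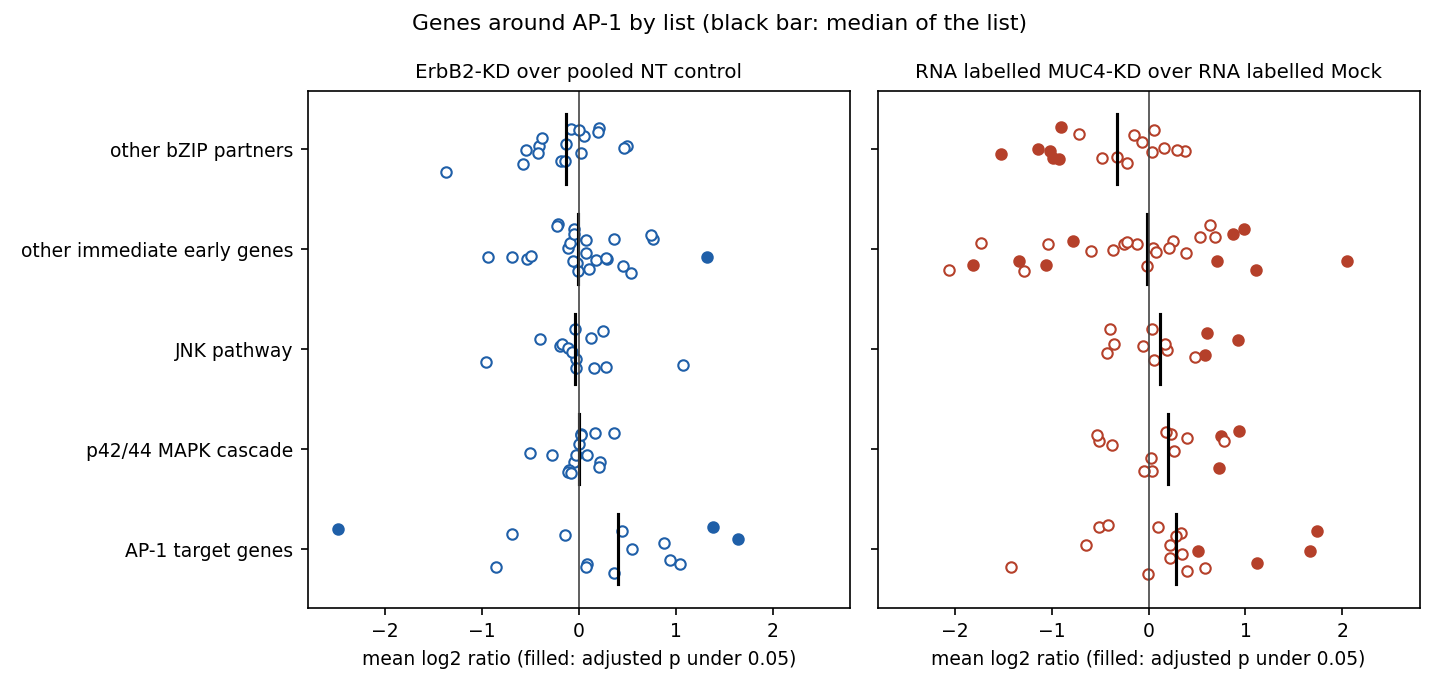
Mean log2 ratio (x axis) of the tested genes of 5 lists around AP-1 (rows), in ErbB2-KD (left) and in the RNA labelled MUC4-KD (right). Filled points have an adjusted p under 0.05 and black bars are list medians: all 6 called bZIP partners lie below 0 in the RNA labelled MUC4-KD, and the called JNK and p42/p44 genes above it.

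The genes most like the 2 largest members of each experiment were found by the root mean square difference of log2 ratios over the 8 arrays. For ATF3 these were CLDN1 (0.33), LARP6 (0.37) and GBP4 (0.38), with ratios of -2.99, -2.84 and -3.25 on the array of clone EV12. For FOSL1 they were ADORA2B (0.33), BCAR3 (0.38) and CCDC9B (0.41). For FOSB they were PNPT1 (0.33), SP110 (0.34) and SHMT2 (0.35), and for FOS they were ID1 (0.43), S100A10 (0.50) and ZFP36L1 (0.52). These distances describe the 8 arrays, and the 4 ratios of an experiment share a control pool.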

How the data were processed

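The authors scanned each array and deposited the Feature Extraction output: the median intensity of each spot and its background in both channels, and a log10 ratio, Cy5 over Cy3, left by that software's background subtraction and dye normalization. The authors' deposited value table equals these log10 ratios, turned to knockdown over control, within 5e-06. The methods name Feature Extraction 10.5 and GeneSpring 10.

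From the intensities, log2 ratios were computed in R 4.3.3 with limma 3.58.1: normexp background correction with an offset of 50, loess within each array with control and outlier spots left out, spots of a probe averaged, and the ratio turned by the dyes of the labels. A probe was tested if the channel of the knockdown, or that of the control, was marked well above background on each of the 4 arrays. lmFit and eBayes tested the mean against 0 in each experiment, and the difference over 8 arrays, with Benjamini-Hochberg adjustment over all tested probes. A gene's value is that of its brightest tested probe. Genes of the lists were named where called with 1 direction on 4 arrays, at most 6 a list. A called gene of the AP-1 target list is not reported here by name. Of 41000 probes, 25398 had a RefSeq symbol. In a channel, 56.7% to 74.3% of probes were well above background, and no spot was saturated. On simulated data a log2 change of 1 was recovered for 47% of changed probes in ErbB2-KD (23877 probes), 45% in MUC4-KD (25054) and 37% in the difference (25841), and a change of 2 for 87%, 85% and 82%. The noise was normal and independent, with each probe's own SD, and 100 probes were shifted by each amount. In MUC4-KD 133 simulated probes were called, against 5124 in the data. The adjusted threshold depends on that number, so these shares do not give the recovery in the data.

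The labels' replicate numbers do not pair the arrays: deviations of same-numbered arrays correlated at -0.24 to -0.0486. The AP-1 genes and the lists were chosen with earlier results of these data known. Alternatives were a normexp offset of 10, the Feature Extraction log ratios, median centring, no filter and a filter in both channels, the mean of all probes, a dye term, slide and replicate blocks, 1 fit over 8 arrays, robust eBayes with an intensity trend, the methods' t-test, averaged array pairs, the turned sign and leaving out each array. The averaged pairs were MUC4-KD arrays 1 with 3 and 2 with 4, which have opposite dyes, in case each pair shared a clone. Promoters are from the RefSeq table of GRCh38.p14. Figures were drawn with matplotlib 3.10.9.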

Additional observations from a re-analysis of the deposited data

Results flagged for a closer look

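In 3 of 18 sets of 4 ratios, an array's gap to its nearest neighbour passed the 95% critical value of Dixon's test. That test divides the gap by the range, and normal, independent ratios pass in about 1 of 20 sets. The share of all tested probes that pass was not counted, so the 3 sets are not read as a trait of these genes. FOS had such an array in the RNA labelled MUC4-KD (array 2, ratio of gap to range 0.846). FOSL2 had one in ErbB2-KD (array 1, 0.894), where its ratios span only -0.14 to 0.07. EGR1 had one in ErbB2-KD (array 2, clone EV12, 0.867). The gap of FOS was not seen in the Feature Extraction log ratios, where array 2 stood at 3.20 and array 4 at 3.46.

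The log2 ratios of the experiments differed as labelled, by the limma test of the difference, for FOS (1.92), JUNB (1.70) and FOSB (-1.81). These are values of the brightest probes, and the other JUNB probe did not pass. With the sign of the MUC4-KD ratios turned, FOSB passed and FOS and JUNB did not.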

How the results depend on the processing

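The number of arrays limits the precision. In ErbB2-KD the count of 0 AP-1 genes called became 2 (FOSL1 and JUNB) in 1 fit over 8 arrays, with or without the slide as a random block, which could only be estimated over all 8 arrays. It was 0 to 1 when an array was left out. In the RNA labelled MUC4-KD the count of 4 became 0 with median centring and with the methods' t-test, and 2 with no filter (FOSB and ATF3) and with arrays 1 and 3, and 2 and 4, averaged (FOS and FOSB). Leaving out an array gave 0 to 5, with 1 without array 1, 2 without array 2, 0 without array 3 and 5 without array 4. The calls over all probes moved widely in the same fits, as given below, so these counts are not read as a trait of the AP-1 genes. For the difference the count of 3 became 0 with median centring and 1 (FOSB) with the methods' t-test, and was 2 to 4 with an array left out. The cause of these changes was not tested. At an unadjusted p under 0.05 the methods' t-test gave 2, 4 and 4 genes, and after Benjamini-Hochberg adjustment 0, 0 and 1.

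The replicate block in the difference kept 3 genes (FOS adjusted p = 0.0385, FOSB 0.027, JUNB 0.0488) and 581 probes in all, and the correlations of same-numbered arrays were -0.119, -0.24, -0.0486 and -0.127. With the slide as a fixed block, chosen after seeing the data, 3 genes were called.

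Over all probes, the 342 calls in ErbB2-KD became 31 with median centring, 50 with no filter, 190 with a dye term, 1093 with the slide block, 546 with the intensity trend, 1120 over 8 arrays and 0 by the methods' t-test, and 0 to 487 with an array left out. The 5124 in the RNA labelled MUC4-KD became 1 with median centring, 2930 with no filter, 2951 with the mean of all probes and 106 by the t-test, and 154 to 9350 with an array left out. The 2559 of the difference became 4074 with Feature Extraction log ratios, 117 with median centring, 546 by the t-test, 567 with averaged arrays and 4435 with the sign turned, and 638 to 5061 with an array left out.

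Median centring gave FOSL2 -0.025 in ErbB2-KD, CCND1 0.11 in the RNA labelled MUC4-KD and MAFF 0.073 in the difference. The mean of all probes gave MUC4 -0.16 in ErbB2-KD and CCND1 0.34 in the RNA labelled MUC4-KD. The turned sign gave differences of -1.29 for FOS, 1.60 for FOSB, -0.17 for FOSL2, 0.56 for JUN, -0.035 for JUNB and 0.58 for MAFF. With an array left out, the ranges that crossed 0 in ErbB2-KD were -0.0079 to 0.063 for FOSL2, -0.28 to 0.37 for JUN, -0.46 to 0.11 for MAFF and -0.18 to 0.38 for CCND1. In the RNA labelled MUC4-KD they were -0.028 to 0.34 for FOSL1, -0.092 to 0.32 for FOSL2, -0.027 to 0.69 for EGR1, -0.47 to 0.016 for ERBB2, -0.36 to 0.32 for CCND1 and -0.92 to 0.28 for MUC1. In the difference they were -0.10 to 0.31 for FOSL2 and -0.45 to 0.12 for MAFF. Of all values recomputed, 867 kept their sign and side of the threshold, 192 lost and 13 gained a call, 28 changed sign and 12 were counts that moved by over 1.5 times.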
